A study of Mus musculus with 4 samples.

Results

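The mitochondrial respiratory chain passes electrons from NADH and succinate through complexes I to IV to oxygen, and complex V, the ATP synthase, uses the resulting proton gradient to make ATP. Each complex joins a small catalytic core to many supernumerary or structural subunits. A few subunits are encoded in mitochondrial DNA and all others in the nucleus. T cells rely on this machinery through quiescence, activation and memory. The genes described here were the rows of the expression table whose symbols start with Ndufa, Ndufb, Ndufc, Ndufs or Ndufv followed by a digit (complex I, assembly factors named Ndufaf left out), the 4 succinate dehydrogenase genes Sdha to Sdhd (II), symbols starting with Uqcr and Cyc1 (III), symbols starting with Cox4 to Cox8 (IV), and symbols starting with Atp5 (V). Of 15367 symbols, 82 matched, and 72 were kept because their mean over the 4 libraries reached 1. These were 33 of 37 for complex I, 4 of 4 for complex II, 9 of 9 for complex III, 10 of 15 for complex IV and 16 of 17 for complex V. Subunits encoded in mitochondrial DNA were not analysed here. The symbol rule also takes in Ndufa4, whose protein is now placed in complex IV, and Atp5s and Atp5sl, which encode mitochondrial factors that are not ATP synthase subunits, and these were left where the rule put them.

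RNA came from hepatic CD8 T cells of adult C57BL/6 mice, isolated on a cell sorter, and the mice were either perforin knockout (2 libraries labelled Prf KO) or wild type (2 libraries labelled WT). All mice had been fed an MCD diet, which induces steatohepatitis, for 4 weeks. Whether the 2 libraries of a group are from separate animals is not in the labels, so the spread that the p-values measure may be technical. The knockout allele is not described in the labels, and the reads behind each value are unknown because the values (read as FPKM, fragments per kilobase of transcript, scaled to library size) carry no depth.

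Prf1, the perforin gene itself, had an FPKM of 95.4 and 98.7 in the libraries labelled Prf KO and 125 and 113 in the WT libraries, a log2 fold of -0.29 (SE 0.24, limma adjusted p = 0.873). Prf1 RNA was lower in both libraries labelled Prf KO but present in all 4, so it does not check the labels, and the directions given for other genes rest on the labels. The 8 CD8 T cell markers examined summed to 3027 and 3019 FPKM in the libraries labelled Prf KO and 3368 and 3393 FPKM in WT, and 0 of them were at 0 in any library. Of the 8, 4 (Cd3d, Cd3g, Lat and Nkg7) were lower in both libraries labelled Prf KO and 0 higher. Among all tested genes 21.9% were lower in both and 13.9% higher. The library labelled Prf KO replicate 1 stood apart from the other 3, with Pearson correlations of 0.914 to 0.924 with them over all tested genes, against 0.961 to 0.969 among those 3. The same library had the most liver endothelial RNA, with 294 and 71.2 FPKM summed over 8 markers in the libraries labelled Prf KO replicates 1 and 2 and 149.8 and 32.8 FPKM in WT replicates 1 and 2. It also had 205 FPKM over 8 macrophage markers, against 94.3 FPKM in the library labelled Prf KO replicate 2 and 84.2 and 67.9 FPKM in WT. Of 8 hepatocyte markers, Ttr was at 0 in every library, and the sum was 24.8 and 1.40 FPKM in the libraries labelled Prf KO and 1.44 and 4.09 FPKM in WT. Neutrophil markers moved with the groups, with 6 of 7 lower in both libraries labelled Prf KO, beside 21.9% of all tested genes. Their sums were 104 and 143 FPKM in the libraries labelled Prf KO, against 229 and 241 FPKM in WT. The part of these other cell types in the results below was not tested, and in sorted bulk RNA fewer cells of a type and less RNA per cell cannot be told apart.

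None of the 72 genes passed limma's test at an adjusted p under 0.05, and 0.0% of the 9805 tested genes did. At an unadjusted p under 0.05 there were 6 of the 72, or 2 higher (Ndufa3 and Atp5k) and 4 lower (Ndufa8, Ndufa13, Sdhb and Atp5o) in the libraries labelled Prf KO, where 4.79% of all tested genes had such a p, 2.07% higher and 2.72% lower. Both libraries labelled Prf KO lay below both WT libraries for 21 of the 72 genes, or 29.2%, against 21.9% of all tested genes. They lay above both WT libraries for 5 of the 72, or 6.94%, against 13.9% of all tested genes. These shares lean downward in the whole table, and after upper-quartile scaling the counts were 17 lower, with 18.6% of all tested genes, and 8 higher, with 17.4% of all tested genes. On that scaling Ndufb3, Uqcrq and Cox5b became higher in both libraries labelled Prf KO, and Uqcrb became lower in both. The library labelled Prf KO replicate 1 was the lowest of the 4 for 35 of the 72 genes, or 48.6%, beside 43.5% of all tested genes, and the highest for 15, or 20.8%, beside 25.2%. Replicate 2 of that label exceeded replicate 1 for 44 of the 72, or 61.1%, beside 59.6%. The median log2 fold over the 72 genes was -0.14, beside -0.08 over all tested genes.

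**Figure D1:**
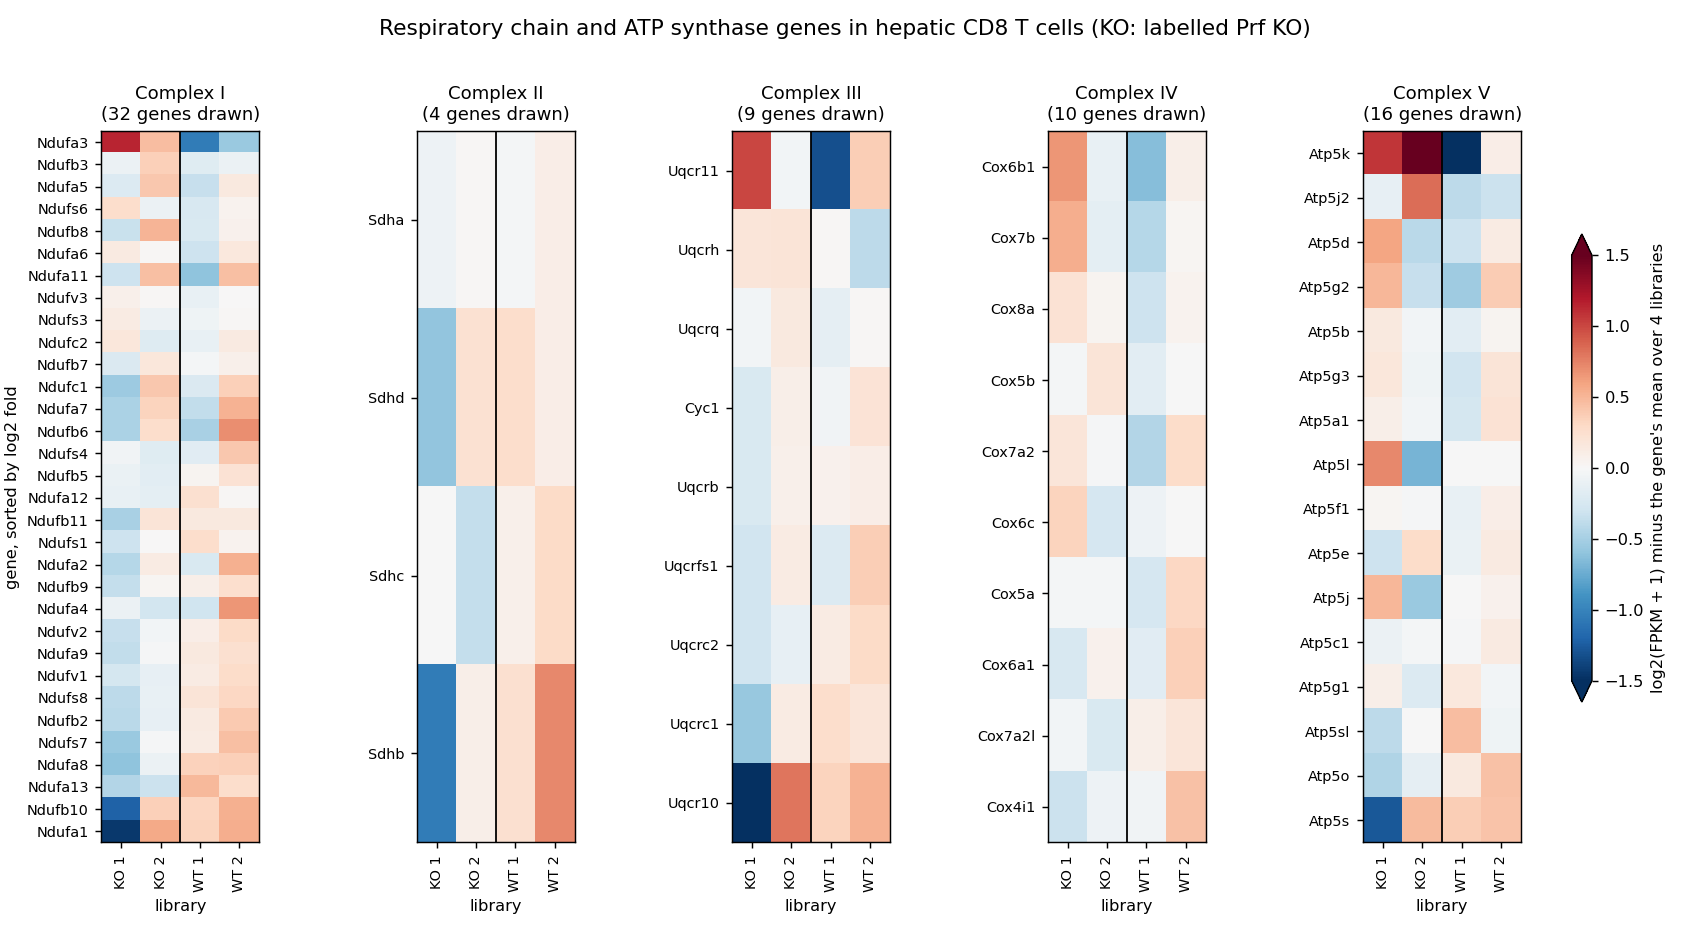
Each row is a gene with a mean of at least 1 (all but 1 of the 72 are drawn), each column a library (KO means labelled Prf KO), and colour gives log2(FPKM + 1) minus the gene's mean over the 4 libraries. Pale rows vary little between libraries, and the strongest colours include those of Atp5k, Ndufa3, Uqcr10 and Ndufa1.

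Complex I oxidises NADH and is the largest complex of the chain. Its 7 nuclear-encoded core subunits, which carry the flavin, the iron-sulphur clusters and part of the ubiquinone site, were lower in both libraries labelled Prf KO for 6 genes and higher in both for 0. The 6 lower make 85.7% of the 7, beside 21.9% of all tested genes, while 13.9% of all tested genes were higher in both. The count of lower core genes was also 6 with upper-quartile, median or quantile scaling. No single core gene passed limma's test. The median log2 fold of the 7 was -0.39, and the ratio of group means of the 6 ran from 0.662 to 0.805.

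Ndufv1, which binds NADH and the flavin, had 40.1 and 44.3 FPKM in the libraries labelled Prf KO and 52.8 and 58.8 FPKM in WT (log2 fold -0.39, SE 0.24). Its partner Ndufv2, an iron-sulphur subunit, had 8.68 and 10.98 FPKM in the libraries labelled Prf KO and 12.2 and 14.1 FPKM in WT (-0.39, SE 0.30). Ndufs1, the largest subunit of the NADH-oxidising arm, had 32.6 and 40.7 FPKM in the libraries labelled Prf KO and 48.9 and 42.2 FPKM in WT (-0.31, SE 0.26). In these 3 genes of the NADH-oxidising arm the groups did not overlap, although for Ndufs1 the nearest libraries were 40.7 and 42.2 FPKM. Ndufs7, the subunit with the last iron-sulphur cluster before ubiquinone, had 11.7 and 17.5 FPKM in the libraries labelled Prf KO and 19.5 and 24.7 FPKM in WT (-0.58, SE 0.31). Ndufs8, which also carries iron-sulphur clusters, had 42.5 and 51.8 FPKM in the libraries labelled Prf KO and 64.3 and 70.1 FPKM in WT (-0.51, SE 0.25). Both of these genes of the ubiquinone-reducing arm were again separated, but Ndufs3 of the same arm, given below, was not. The library labelled Prf KO replicate 1 was the lowest of the 4 for 6 of the 7 core genes, or 85.7%, beside 43.5% of all tested genes. Ndufs3, another core subunit, overlapped, with 12.4 and 10.6 FPKM in the libraries labelled Prf KO and 10.7 and 11.5 FPKM in WT (0.04, SE 0.29). The limma adjusted p of these genes was 0.866 to 0.981.

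**Figure D2:**
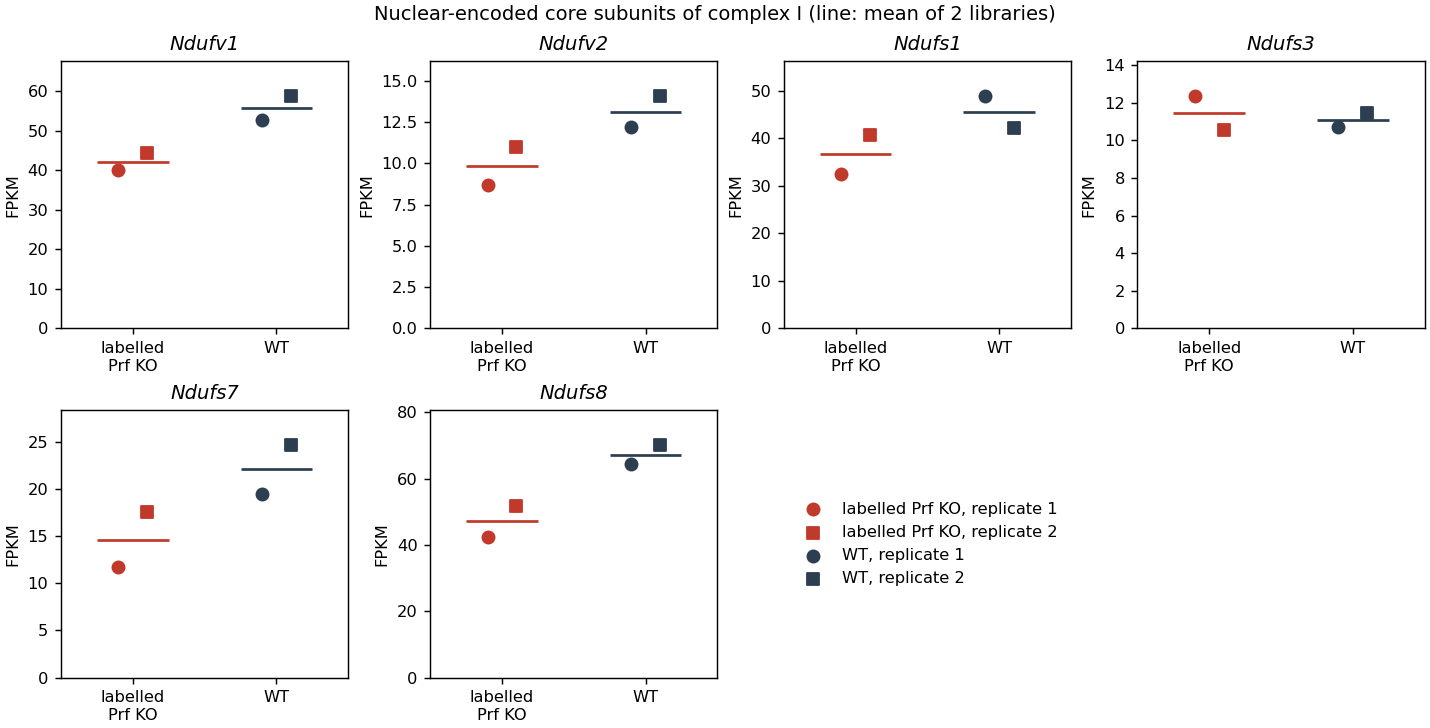
FPKM of 6 nuclear-encoded core subunits of complex I in each library (circles replicate 1, squares replicate 2, lines group means of 2 libraries; axes start at 0). In 5 panels both libraries labelled Prf KO sit below both WT libraries, and Ndufs3 overlaps.

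Without the library labelled Prf KO replicate 1, which stood apart, the library labelled Prf KO replicate 2 lay below both WT libraries for 7 of the 7 core genes, where 34.2% of all tested genes did so, and the log2 folds ran from -0.37 (Ndufs8) to -0.06 (Ndufs3). Ndufs1 was then at -0.15 and Ndufs7 at -0.31, against -0.31 and -0.58 with all libraries. Without the library labelled Prf KO replicate 2, without WT replicate 1 and without WT replicate 2, 6 of the 7 were lower with no overlap, beside 48.9%, 36.3% and 37.6% of all tested genes in that order. Genes apart with all libraries stay apart when 1 is left out, so these core counts could not fall below 6 and do not show stability. The median log2 fold of the 7 was -0.29 without the library labelled Prf KO replicate 1, -0.54 without its replicate 2, -0.49 without WT replicate 1 and -0.41 without WT replicate 2. Counts over all 72 members differed with the library left out. Higher with no overlap were 18 of 72 without the library labelled Prf KO replicate 1 (31.9% of all tested genes) and 18 without its replicate 2 (30.1%). There were 5 without WT replicate 1 (26.1%) and 25 without WT replicate 2 (26.6%). Lower with no overlap were from 24 without WT replicate 2 (37.6%) to 39 without the library labelled Prf KO replicate 2 (48.9%). The core transcripts are mostly of intermediate length, with a median of 1312 bases. Among all tested genes of 1000 to under 2000 bases, 30.5% were lower in both libraries labelled Prf KO and the median log2 fold was -0.21, so that genes of this length leaned downward as well.

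The other 26 complex I genes were mixed, with 7 lower in both libraries labelled Prf KO, 2 higher in both and 17 overlapping. These are 26.9% lower and 7.69% higher, beside 21.9% and 13.9% of all tested genes. The median log2 fold was -0.22 with all libraries, 0.02 without the library labelled Prf KO replicate 1 and 0.09 without WT replicate 2. The 7 lower were Ndufa8, Ndufa9, Ndufa12, Ndufa13, Ndufb2, Ndufb5 and Ndufb9, of which Ndufa12 and Ndufb5 overlapped after upper-quartile scaling. Ndufa8, an accessory subunit, had 16.0 and 23.4 FPKM in the libraries labelled Prf KO and 32.0 and 32.1 FPKM in WT (log2 fold -0.70, SE 0.28). Ndufa13, also known as GRIM-19, an accessory subunit of the membrane arm, had 4.73 and 5.25 FPKM in the libraries labelled Prf KO and 9.93 and 8.38 FPKM in WT (-0.76, SE 0.32). For both genes the groups did not overlap, and the limma adjusted p was 0.866. Ndufb7, the complex I gene with the highest level, had 91.0 and 119 FPKM in the libraries labelled Prf KO and 104 and 111 FPKM in WT, with overlapping groups.

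Ndufa3, a small membrane-anchored accessory subunit, went the other way. It had 190.0 and 118 FPKM in the libraries labelled Prf KO and 40.6 and 57.9 FPKM in WT, a ratio of means of 3.12 (log2 fold 1.60, SE 0.31, limma adjusted p = 0.798). Both libraries labelled Prf KO exceeded both WT libraries, and the log2 fold stayed between 1.26 and 1.95 when any library was left out. The gene overlaps another on the opposite strand, and the library kit is not known to mark strand, so its value is uncertain. The second gene that was higher in both, Ndufv3, differed little, with 52.2 and 50.1 FPKM in the libraries labelled Prf KO and 45.8 and 49.5 FPKM in WT (log2 fold 0.10, SE 0.24). Ndufa1 and Ndufb10 had the lowest log2 folds of the complex, -0.88 and -0.86, but these rested on a single library: Ndufa1 had 0.778 and 6.21 FPKM in the libraries labelled Prf KO and 5.12 and 6.05 FPKM in WT. Ndufb10 had 11.6 and 36.4 FPKM in the libraries labelled Prf KO and 35.6 and 41.1 FPKM in WT. Without the library labelled Prf KO replicate 1 the log2 folds were 0.13 and -0.07.

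Complex II, succinate dehydrogenase, also belongs to the tricarboxylic acid cycle and has no subunit encoded in mitochondrial DNA. All 4 of its genes had a log2 fold below 0, beside 58.3% of all tested genes, and after upper-quartile scaling 3 of the 4 did, beside 50.8%. In both libraries labelled Prf KO 2 of the 4 were lower, beside 21.9% of all tested genes. Sdhb, the iron-sulphur subunit, had 18.6 and 42.2 FPKM in the libraries labelled Prf KO and 46.9 and 65.7 FPKM in WT (log2 fold -0.96, SE 0.39, limma adjusted p = 0.866). The groups were apart, but the library labelled Prf KO replicate 1 was far below replicate 2, and without it the log2 fold was -0.39. Sdhc, a membrane anchor, had 55.3 and 43.3 FPKM in the libraries labelled Prf KO and 58.6 and 68.0 FPKM in WT (-0.36, SE 0.26), and after upper-quartile scaling its groups overlapped. Sdhd, the other anchor and the most abundant gene of the complex, had 139 and 246 FPKM in the libraries labelled Prf KO and 252 and 224 FPKM in WT. Sdha, the flavoprotein, had 161 and 172 FPKM in the libraries labelled Prf KO and 166 and 182 FPKM in WT (-0.06, SE 0.24). Both of these overlapped, and the fold of Sdhd was -0.36 with all libraries and 0.05 without the library labelled Prf KO replicate 1.

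Complex III, the cytochrome bc1 complex, passes electrons from ubiquinol to cytochrome c. Of its 9 genes, 2 were lower in both libraries labelled Prf KO, 1 was higher in both and 6 overlapped (median log2 fold -0.16, and 0.04 without the library labelled Prf KO replicate 1). These are 22.2% lower and 11.1% higher, near the 21.9% and 13.9% of all tested genes. The separated genes that were lower were both core proteins. Uqcrc1 had 225 and 362 FPKM in the libraries labelled Prf KO and 399.7 and 378 FPKM in WT (log2 fold -0.45, SE 0.29), the highest level in the complex. Uqcrc2 had 33.8 and 38.3 FPKM in the libraries labelled Prf KO and 45.6 and 51.0 FPKM in WT (-0.41, SE 0.25). Without the library labelled Prf KO replicate 1, the log2 fold of Uqcrc1 was -0.10 and that of Uqcrc2 was -0.33. The catalytic subunits overlapped between groups. Cyc1, cytochrome c1, had 96.0 and 121 FPKM in the libraries labelled Prf KO and 109 and 130.1 FPKM in WT (-0.14, SE 0.25), and Uqcrfs1, the Rieske iron-sulphur protein, had 12.5 and 16.9 FPKM in the libraries labelled Prf KO and 13.3 and 20.1 FPKM in WT (-0.16, SE 0.32).

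Uqcrh, the acidic hinge protein of complex III, was higher in both libraries labelled Prf KO, with 11.8 and 11.96 FPKM there and 10.5 and 7.58 FPKM in WT (log2 fold 0.38, SE 0.31). Small subunits scattered between replicates. Uqcr10 had 5.30 and 33.6 FPKM in the libraries labelled Prf KO and 23.9 and 27.4 FPKM in WT (-0.85, SE 0.65). Uqcr11 had 7.13 and 2.92 FPKM in the libraries labelled Prf KO and 0.617 and 4.21 FPKM in WT (0.96, SE 0.62). For both the groups overlapped, and the log2 fold of Uqcr10 was 0.38 without the library labelled Prf KO replicate 1.

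Complex IV, cytochrome c oxidase, reduces oxygen. Its catalytic subunits are mitochondrially encoded, so the nuclear genes here are regulatory and structural. Of 10 genes, 2 were lower in both libraries labelled Prf KO, 0 were higher in both and 8 overlapped, and the median log2 fold was 0.13. The 20.0% lower is near the 21.9% of all tested genes, while 13.9% of all tested genes were higher. Without WT replicate 1 this median was -0.07. Cox4i1, the ubiquitous form of the regulatory subunit 4, had 79.0 and 93.7 FPKM in the libraries labelled Prf KO and 94.9 and 134 FPKM in WT (log2 fold -0.39, SE 0.27). Cox7a2l, a gene linked to supercomplexes of complexes III and IV and the most abundant of this set, had 589 and 519 FPKM in the libraries labelled Prf KO and 647 and 688 FPKM in WT (-0.27, SE 0.26). It overlapped after upper-quartile scaling. For Cox4i1 the nearest libraries of the groups were 93.7 and 94.9 FPKM.

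The remaining genes of complex IV overlapped, although after upper-quartile scaling Cox5b was higher in both libraries labelled Prf KO, as were 17.4% of all tested genes. Cox6b1, which faces cytochrome c, had 42.1 and 24.2 FPKM in the libraries labelled Prf KO and 16.5 and 27.9 FPKM in WT (log2 fold 0.55, SE 0.36), and Cox7b had 15.7 and 9.31 FPKM in the libraries labelled Prf KO and 7.54 and 10.7 FPKM in WT (0.39, SE 0.35). In both the library labelled Prf KO replicate 1 was highest and WT replicate 1 lowest. Cox5a had 131 FPKM in each library labelled Prf KO and 112 and 166 FPKM in WT, while Cox5b was far lower, with 7.99 and 9.50 FPKM in the libraries labelled Prf KO and 7.17 and 8.09 FPKM in WT. Cox6a1 had 124 and 154 FPKM in the libraries labelled Prf KO and 130.4 and 188 FPKM in WT. Cox8a had 138 and 122 FPKM in the libraries labelled Prf KO and 95.4 and 122 FPKM in WT.

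Several genes of complexes I, IV and V belong to sets of paralogous isoforms. A value of 0 in this table does not show that an isoform is unused, since Cox7c and Ndufb4, subunits of general use, were also listed at 0 in some libraries. Cox4i2, a form known from lung, and Cox7a1, a form of heart and skeletal muscle, were listed at 0 in every library. Cox6a2, another muscle form, had 0 and 0.294 FPKM in the libraries labelled Prf KO and 0.932 and 0.0972 FPKM in WT, and Cox6b2, a testis form, reached at most 0.123 FPKM. Cox8b and Cox8c were not analysed here. Cox7a2, the widely expressed form of subunit 7a, had 43.2 and 37.3 FPKM in the libraries labelled Prf KO and 27.6 and 46.0 FPKM in WT. With Cox4i1, Cox6a1 and Cox6b1 it was well above the muscle, lung and testis forms in every library, and the lowest value of the 4 genes was 16.5 FPKM. Ndufa4l2, a paralogue of Ndufa4 known from hypoxia, was at 0.877 and 0 FPKM in the libraries labelled Prf KO and 0 and 0 FPKM in WT, whereas Ndufa4 had 38.9 and 33.9 FPKM in the libraries labelled Prf KO and 33.5 and 66.2 FPKM in WT. Of the 3 genes for the same mature c subunit of the ATP synthase ring, Atp5g3 was highest, with 81.8 and 69.0 FPKM in the libraries labelled Prf KO and 59.0 and 82.8 FPKM in WT. Atp5g1 had 31.9 and 26.0 FPKM in the libraries labelled Prf KO and 33.6 and 29.3 FPKM in WT, and Atp5g2 had 10.1 and 5.18 FPKM in the libraries labelled Prf KO and 4.40 and 9.16 FPKM in WT. That order held in each library, and the groups overlapped for all 3 genes.

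The other 5 genes below a mean of 1 encode subunits that every respiring cell is thought to use. Ndufa10 had 0.728 and 0.482 FPKM in the libraries labelled Prf KO and 0.784 and 1.14 FPKM in WT. Ndufs5, Ndufb4, Cox7c and Atp5h were similarly low, with Ndufb4 listed at 0 in 1 library of each group. Cox7c had 1.06 and 1.18 FPKM in the libraries labelled Prf KO and 0 and 0.1197 FPKM in WT. Just above the limit were Atp5s and Ndufa11, with means of 1.78 and 2.49 FPKM over the 4 libraries, and just below it Ndufa10 and Ndufs5, with 0.784 and 0.754 FPKM. In GENCODE M21, 19 of the 82 genes have at least 1 processed pseudogene that matches a coding transcript at 95% identity or more over at least 200 bases. Ndufb4, Ndufs5 and Atp5h are among them, while Ndufa10 and Cox7c have no such copy. The 3 genes with 3 or more such copies, Atp5l, Atp5h and Uqcrb, had a median level of 5.92 FPKM, beside 28.9 FPKM for the 63 genes without a copy. The 16 genes with 1 or 2 copies had a median of 21.7 FPKM and reached 610 FPKM (Cox7a2l). The sources used here do not give how the authors treated reads with several matches, and its part in these levels was not tested.

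Complex V makes ATP with a catalytic head, a rotor and a peripheral stalk. Of its 16 genes, 2 were lower in both libraries labelled Prf KO, 2 were higher in both and 12 overlapped, and the median log2 fold was 0.01. That is 12.5% in each direction, beside 21.9% lower and 13.9% higher among all tested genes. Atp5b, the catalytic beta subunit and the most abundant of all 72 genes, had 921 and 811 FPKM in the libraries labelled Prf KO and 748 and 856 FPKM in WT (log2 fold 0.11, SE 0.27). Atp5a1, the alpha subunit, had 141 and 129 FPKM in the libraries labelled Prf KO and 110.2 and 155 FPKM in WT (0.04, SE 0.26). The head subunits thus overlapped between groups. The central stalk gene Atp5c1 had 273 and 284 FPKM in the libraries labelled Prf KO and 288 and 318 FPKM in WT (-0.12, SE 0.24), apart by a small margin that upper-quartile scaling removed. Atp5d had 9.998 and 4.54 FPKM in the libraries labelled Prf KO and 4.92 and 6.98 FPKM in WT, and Atp5e had 37.2 and 55.9 FPKM in the libraries labelled Prf KO and 42.9 and 51.0 FPKM in WT. These 2 genes, for the delta and epsilon subunits of the stalk, overlapped.

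Atp5o, which encodes the OSCP subunit that ties the head to the peripheral stalk, had 68.4 and 85.1 FPKM in the libraries labelled Prf KO and 104 and 128 FPKM in WT, a ratio of means of 0.663 (log2 fold -0.59, SE 0.26, limma adjusted p = 0.866). Both libraries labelled Prf KO were below both WT libraries, also after upper-quartile scaling. Atp5k, the small membrane subunit e of the dimer interface, had 114 and 154 FPKM in the libraries labelled Prf KO and 7.57 and 57.5 FPKM in WT, a ratio of means of 4.12 (log2 fold 2.58, SE 0.72, limma adjusted p = 0.866). The groups were apart, but the WT libraries differed from each other more than the libraries labelled Prf KO did. Without WT replicate 2 the log2 fold was 3.96, and without WT replicate 1 it was 1.19. Each of these rests on a single WT library, at 7.57 and 57.5 FPKM in that order. Atp5j2, the membrane subunit f, had 9.76 and 19.9 FPKM in the libraries labelled Prf KO and 7.92 and 8.42 FPKM in WT (0.71, SE 0.37), and 0.23 without the library labelled Prf KO replicate 2. Atp5sl had 16.9 and 22.5 FPKM in the libraries labelled Prf KO and 31.6 and 21.5 FPKM in WT (-0.40, SE 0.30), and overlapped. Atp5k has 1 processed copy, and Atp5o has 1 copy and overlaps other genes on the opposite strand, so both values are uncertain.

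**Figure D3:**
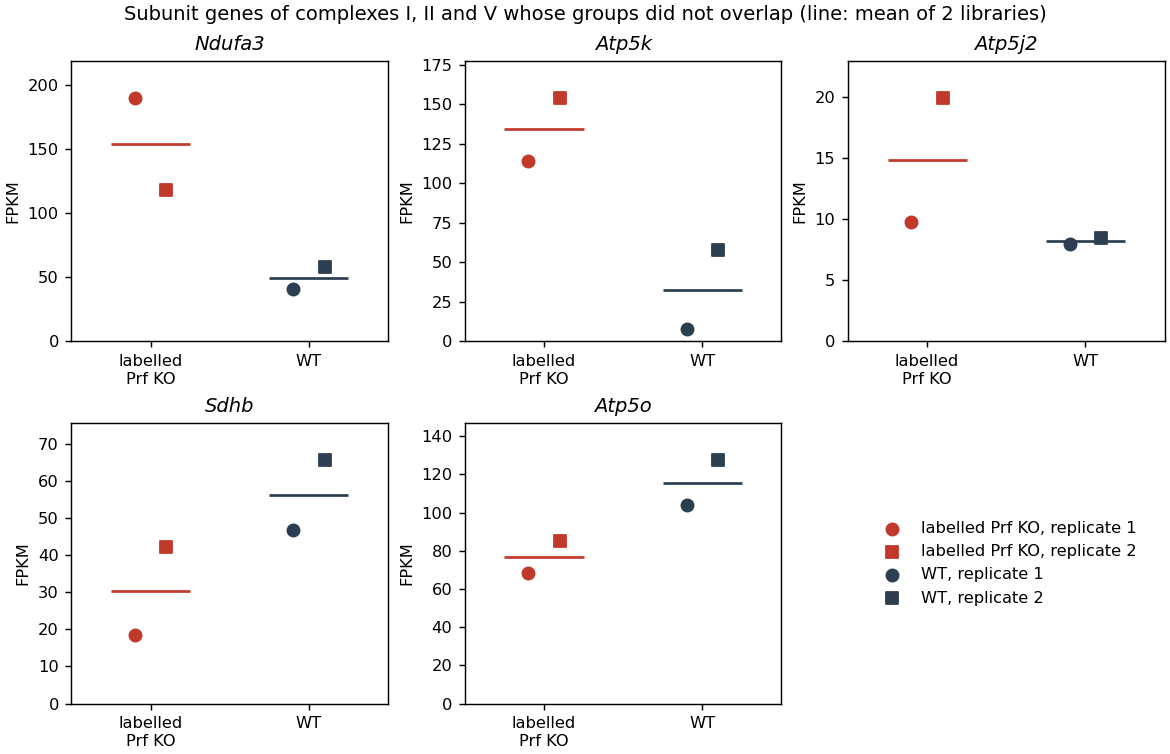
FPKM of 5 subunit genes in each library (circles replicate 1, squares replicate 2, lines group means of 2 libraries; axes start at 0). Ndufa3, Atp5k and Atp5j2 were higher and Sdhb and Atp5o lower in both libraries labelled Prf KO, with wide gaps between replicates for Atp5k, Atp5j2 and Sdhb.

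**Figure D4:**
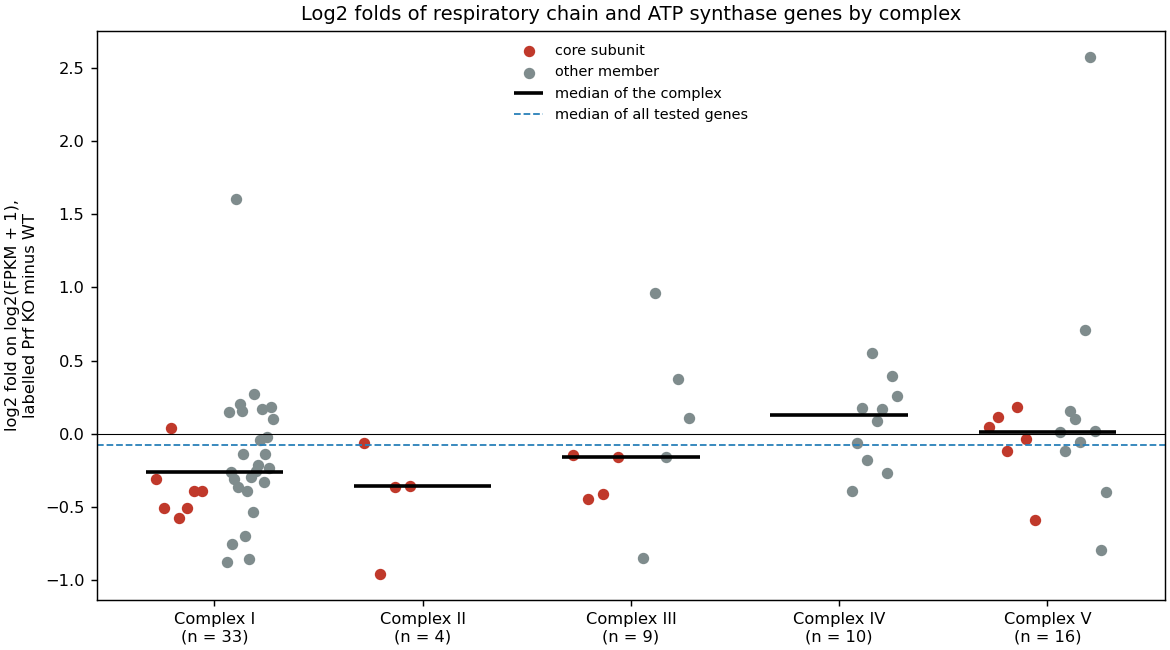
Log2 fold of each of the 72 genes (labelled Prf KO minus WT) by complex, with core subunits in red and other members in grey, black bars for the median of each complex and a dashed line for the median of all tested genes. Medians run from -0.36 in complex II to 0.13 in complex IV, and the 7 core genes of complex I lie at or below 0.04.

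Core and other subunits were also counted over the complexes together. Core is wider here than the catalytic subunits, and in complex III takes in Cyc1, Uqcrfs1, Uqcrc1 and Uqcrc2. In complex V it takes in Atp5a1, Atp5b, Atp5c1, Atp5d, Atp5e and Atp5o. Of these genes, Uqcrc1, Uqcrc2, Atp5c1 and Atp5o were lower in both libraries labelled Prf KO, and the rest overlapped. Of 21 core genes of complexes I, II, III and V, 12 were lower in both libraries labelled Prf KO and 0 higher. Of the 51 other members, 9 were lower and 5 higher. As shares, 57.1% of core genes and 17.6% of the others were lower in both, beside 21.9% of all tested genes. Higher in both were 0.0% of core genes and 9.8% of the others, beside 13.9%. After upper-quartile scaling 10 core genes were lower and 0 higher, and of the others 7 were lower and 8 higher. Among all tested genes 18.6% were then lower and 17.4% higher. All 4 genes of complex II count as core and all 10 of complex IV as other, so the split is partly one by complex. Summed over the 21 core genes, the level was 2387 and 2652 FPKM in the libraries labelled Prf KO and 2677 and 2934 FPKM in WT. Summed over the other 51, it was 2446 and 2492 FPKM in the libraries labelled Prf KO and 2231 and 2737 FPKM in WT. The core sums of the groups were adjacent at 2652 and 2677 FPKM, and the sums of the other genes overlapped. The median log2 fold of the core genes was -0.36 with all libraries, -0.15 without the library labelled Prf KO replicate 1 and -0.29 without WT replicate 2. The difference between core and other members was not tested.

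Many members are short, with a median transcript length of 751 bases in GENCODE M21, against 2606 bases over the tested genes with a length. Library differences varied with length. Among all tested genes under 600 bases, the library labelled Prf KO replicate 1 exceeded the mean of the other 3 libraries by a median of 0.23 on the log2 scale, and it lay below it by a median of -0.30 among genes of 1000 to under 2000 bases. The WT libraries differed too. WT replicate 2 exceeded WT replicate 1 for 62 of the 72 members, or 86.1%, beside 50.4% of all tested genes. Under 600 bases it did so for 21 of the 23 members, or 91.3%, beside 70.7% of all tested genes of that length. The shares of members and of all tested genes were 95.5% and 64.1% from 600 to under 1000 bases. They were 77.3% and 51.4% from 1000 to under 2000 bases, and 60.0% and 48.3% at 2000 bases or more. None of the 23 members under 600 bases was lower in both libraries labelled Prf KO, whereas 11 of the 22 members of 1000 to under 2000 bases were. Among all tested genes the share lower in both was 9.29% under 600 bases, 31.9% from 600 to under 1000 bases, 30.5% from 1000 to under 2000 bases and 17.7% at 2000 bases or more. The share thus differed between length classes with no steady trend, and the part of length in the split between core and other subunits was not tested.

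**Figure D5:**
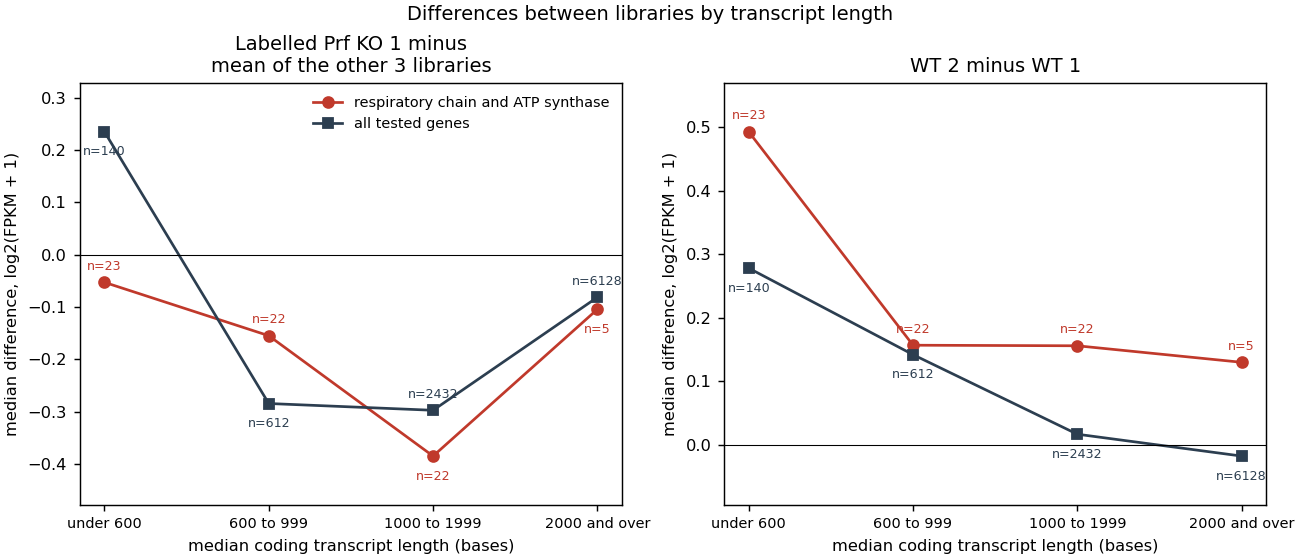
Median difference in log2(FPKM + 1) by median coding transcript length, for the library labelled Prf KO replicate 1 minus the mean of the other 3 (left) and for WT replicate 2 minus WT replicate 1 (right), with the number of genes at each point. Among members under 600 bases WT replicate 2 lay 0.49 above WT replicate 1, and the gap was 0.16 among members of 600 to under 1000 bases.

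Promoters of respiratory chain genes are known to bind NRF1, the ETS factor GABP and YY1. RefSeq promoter windows (250 bases before to 50 after a start site) were at hand for 60 of the 72 genes, 66 windows in all. The palindromic NRF1 motif stood in 22.7% of them, beside 10.8% of windows of all tested genes and 4.60% of all windows. The YY1 motif AAGATGGC stood in 18.2%, beside 5.02% and 2.75%, and the GABP motif CCGGAAGT in 6.06%, beside 8.90% and 3.89%. Both strands were searched, and a window with matches to more than 1 motif was counted under each. The 14 genes with an NRF1 match had a median log2 fold of 0.02 and the 46 without had -0.13, and the 11 with a YY1 match had -0.06 against -0.12 for the 49 without. The 4 genes with a GABP match, Ndufs3, Cox8a, Uqcrh and Uqcr11, had log2 folds of 0.04, 0.26, 0.38 and 0.96, a median of 0.32, against -0.13 for the 56 without. Of these, Cox8a, Uqcrh and Uqcr11 are under 600 bases, where the median of the members was 0.11, and Uqcr11 was at 0.12 without WT replicate 1. Whether folds differ with a motif was not tested. The windows below were picked to show a YY1 and an NRF1 match each in a gene that was higher and a gene that was lower. Ndufa3 was higher and Ndufs7 lower in both libraries labelled Prf KO, and each has a YY1 match just after its start. Atp5k was higher and Atp5o lower, and each has an NRF1 match. Capitals mark the match, sequences run 5′ to 3′ along the gene's strand, and coordinates are those of the RefSeq table, not of the build named for the deposited values.
Ndufa3 promoter (GRCm38.p6, chr7:3617123-3617422, plus strand): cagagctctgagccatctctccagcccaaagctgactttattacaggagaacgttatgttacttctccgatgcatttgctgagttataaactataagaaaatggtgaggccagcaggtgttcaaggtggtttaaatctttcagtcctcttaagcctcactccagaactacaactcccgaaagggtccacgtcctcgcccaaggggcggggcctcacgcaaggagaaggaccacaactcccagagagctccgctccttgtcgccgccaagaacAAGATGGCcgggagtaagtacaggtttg
Ndufs7 promoter (GRCm38.p6, chr10:80249199-80249498, plus strand): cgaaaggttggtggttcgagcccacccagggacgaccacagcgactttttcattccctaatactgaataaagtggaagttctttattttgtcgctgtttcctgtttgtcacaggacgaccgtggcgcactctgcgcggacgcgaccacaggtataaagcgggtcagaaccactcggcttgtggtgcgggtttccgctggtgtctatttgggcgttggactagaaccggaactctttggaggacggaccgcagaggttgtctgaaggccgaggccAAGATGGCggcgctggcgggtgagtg
Atp5k promoter (GRCm38.p6, chr5:108434350-108434649, minus strand): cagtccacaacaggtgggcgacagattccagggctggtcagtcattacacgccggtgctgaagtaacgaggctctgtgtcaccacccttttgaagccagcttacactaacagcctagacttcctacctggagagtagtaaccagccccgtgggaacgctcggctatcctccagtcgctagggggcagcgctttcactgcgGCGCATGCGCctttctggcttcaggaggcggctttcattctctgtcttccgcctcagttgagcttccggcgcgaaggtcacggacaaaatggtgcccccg
Atp5o promoter (GRCm38.p6, chr16:91931581-91931880, minus strand): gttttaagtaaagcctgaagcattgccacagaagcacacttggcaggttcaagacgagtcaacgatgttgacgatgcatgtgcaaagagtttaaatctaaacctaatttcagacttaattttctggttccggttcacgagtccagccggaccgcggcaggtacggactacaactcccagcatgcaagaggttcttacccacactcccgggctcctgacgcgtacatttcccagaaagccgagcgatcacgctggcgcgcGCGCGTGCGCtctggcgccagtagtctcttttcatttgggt

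Genes that build or serve the chain were examined as further lists, and 0 of their members passed limma's test over all genes. Of 14 complex I assembly genes, 6 were lower in both libraries labelled Prf KO and 1 was higher in both, and the median log2 fold was -0.26 (-0.15 without the library labelled Prf KO replicate 1). Ndufaf6 had 0.0569 and 2.87 FPKM in the libraries labelled Prf KO and 5.18 and 4.57 FPKM in WT (log2 fold -1.54, SE 0.61, and -0.60 without the library labelled Prf KO replicate 1). Ecsit had 35.6 FPKM in each library labelled Prf KO and 51.2 and 43.8 FPKM in WT (-0.40, SE 0.25), Ndufaf1 had a log2 fold of -0.43 and Ndufaf2 of -0.64 (-0.18 without the library labelled Prf KO replicate 1). All 4 were lower in both, and the 6 of 14 make 42.9%, beside 21.9% of all tested genes. The 1 higher makes 7.14%, beside 13.9%.

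Of 29 tested assembly genes for complexes II to V, 10 were lower and 2 higher in both libraries labelled Prf KO, or 34.5% and 6.90%, beside 21.9% and 13.9% of all tested genes. For this list the median log2 fold was -0.15 with all libraries, 0.0080 without the library labelled Prf KO replicate 1 and 0.04 without WT replicate 2. Cox10, which makes haem for cytochrome c oxidase, had 12.9 and 19.6 FPKM in the libraries labelled Prf KO and 27.5 and 24.8 FPKM in WT (log2 fold -0.68, SE 0.29, and -0.40 without the library labelled Prf KO replicate 1). Pet100 had a log2 fold of -0.93. In the other direction Taco1, a translation activator of a mitochondrially encoded oxidase subunit, had 17.2 and 8.17 FPKM in the libraries labelled Prf KO and 7.47 and 4.47 FPKM in WT (0.93, SE 0.41, and 0.43 without the library labelled Prf KO replicate 1). Pet117 had 22.5 and 1.74 FPKM in the libraries labelled Prf KO and was listed at 0 in both WT libraries. Those 2 were the genes higher in both.

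Among 14 genes for electron carriers, ATP exchange and coupling, 6 were lower and 1 higher in both libraries labelled Prf KO (median log2 fold -0.34). These are 42.9% and 7.14%, beside 21.9% and 13.9% of all tested genes. The adenine nucleotide carrier Slc25a4 had 97.8 and 111 FPKM in the libraries labelled Prf KO and 131 and 136 FPKM in WT (-0.36, SE 0.24). Etfb and Etfdh, which feed electrons from fatty acid oxidation into ubiquinone, had log2 folds of -0.63 and -0.65 (-0.47 and -0.30 without the library labelled Prf KO replicate 1), and the outer membrane channel gene Vdac1 had -0.55. All 4 were lower in both libraries labelled Prf KO. Coenzyme Q synthesis genes had 2 of 12 lower and 0 higher in both, or 16.7% and 0.0%, beside 21.9% and 13.9% of all tested genes. Their median log2 fold was -0.42 with all libraries, -0.20 without the library labelled Prf KO replicate 1 and -0.13 without WT replicate 2, with Coq7 at -0.83 (-0.34 without the library labelled Prf KO replicate 1) and Coq5 at -0.78, while Pdss1 and Coq2 overlapped at -0.80 and -0.50.

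Of 13 tested regulators of mitochondrial biogenesis, 3 were lower and 1 higher in both libraries labelled Prf KO. The 23.1% lower is near the 21.9% of all tested genes, and the 7.69% higher is beside 13.9%. The median log2 fold of the regulators was -0.17 with all libraries, -0.04 without the library labelled Prf KO replicate 2 and -0.05 without WT replicate 1. Nrf1, a transcription factor for respiratory chain genes, had 10.2 and 20.7 FPKM in the libraries labelled Prf KO and 20.8 and 21.3 FPKM in WT (-0.50, SE 0.35). Without the library labelled Prf KO replicate 1 its log2 fold was -0.02. Gabpb1 had -0.26 with all libraries, and -0.02 without that library. Tfb2m had -0.81 with overlapping groups, and the mitochondrial RNA polymerase gene Polrmt, higher in both, 0.42.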

How the data were processed

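Gene expression was measured by RNA sequencing in 4 libraries of hepatic CD8 T cells, 2 labelled Prf KO and 2 labelled WT, and the titles gave the groups and replicate numbers. Library preparation from total RNA used an Illumina TruSeq RNA kit, per the labels' protocols, a kit not known to mark strand. Bowtie 0.12.2 and the mouse build mm8 are named, with no role given, per the submitters' processing notes. The sources used here do not give the counting tool, annotation or filters. The authors deposited 1 value per gene symbol and library, which was read as FPKM because the values are not whole numbers and do not share a column total. The columns sum to 334493 and 383498 in the libraries labelled Prf KO and 378364 and 392785 in WT. No read counts are given, so depth is unknown and no counting interval was computed.

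Values were analysed as log2(FPKM + 1) for the 9805 genes with a mean of at least 1, with limma 3.58.1 in R 4.3.3 (intensity trend, two-sided, Benjamini-Hochberg adjustment over all tested genes, threshold 0.05). Fold changes are labelled Prf KO minus WT on that scale and understate changes of low genes. An exact permutation test of 2 against 2 libraries cannot go below a two-sided p of 0.333. Groups are called apart where both libraries of a group lie beyond both of the other. The procedure was tested on simulated data. Full values are given for the 4 genes of each complex with the smallest p, the most abundant gene of each, core subunits, isoform sets and any gene passing the test in a fit with a library left out. Of the further lists, up to 4 genes with the smallest p are named; Nrf1, Gabpb1, Tfb2m and Polrmt are those of the regulators. The values of 1 core gene are not reported here, although counts and medians include it. The genes and lists were chosen with earlier results of these data known. Transcript lengths, overlaps and pseudogenes came from GENCODE M21 (blastn 2.17.0), promoters from RefSeq GRCm38.p6. Of the 72 genes, 24 overlap an exon of another gene on the opposite strand, and their values are uncertain without strand; among genes named above these are Ndufs1, Ndufs3, Ndufa3, Ndufa9, Ndufa11, Ndufa13, Ndufb2, Ndufb5, Uqcrc2, Uqcrb, Cox4i1, Cox5a, Atp5a1, Atp5d, Atp5l and Atp5o. Figures were drawn with matplotlib 3.10.9. Other settings are listed with their effects in the closing section.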

Additional observations from a re-analysis of the deposited data

How the results depend on the processing

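With 1 library left out, limma called 0 to 1 genes in the whole table and 0 to 1 members: Atp5k without WT replicate 2, and H2-Q6, outside the members, without the library labelled Prf KO replicate 2. In such fits 1 group has a single library, so the spread comes from the other group alone. Replicate block, no filter, a mean of at least 5, 3 scalings, pseudocounts of 0.1 and 5, no intensity trend and robust moderation each called 0. The deviations of same-numbered libraries correlated at 0.07 over all tested genes, and the numbers were not taken as pairs. Marker sums of liver endothelium, macrophages, neutrophils and B cells had the same order of replicates in both groups. Those of CD8 T cells, hepatocytes and erythroid cells did not, and a shared preparation was not tested. The replicate block gave 0 calls over all genes, 0 among members and 542 genes at an unadjusted limma p under 0.05, against 470 without it. The median log2 fold with a library left out ran from -0.24 to 0.061 over all members, -0.47 to 0.0053 in complex I, -0.48 to -0.20 in II, -0.31 to 0.04 in III, -0.07 to 0.24 in IV and -0.11 to 0.15 in V. Of 72 members, 38 kept the sign of their log2 fold with each library left out, and 37 in every setting tried. Leaving out 1 library (added after seeing the data) gave 24 to 39 members lower with no overlap, or 33.3% to 54.2%, beside 34.2% to 48.9% of all tested genes. It gave 5 to 25 higher, or 6.94% to 34.7%, beside 26.1% to 31.9%. Of the 7 core genes of complex I, 6 to 7 were lower and 0 to 1 higher. Fewer libraries leave fewer values to overlap. Genes apart with all libraries stay apart, so no count could fall below its value with all libraries. Without WT replicate 2 the lean of the members turned, with 33.3% lower against 37.6% of all tested genes and 34.7% higher against 26.6%. Members higher in both numbered 8 with upper-quartile and 8 with quantile scaling, against 5 as deposited. The cause of these shifts was not tested. Upper-quartile scaling moved the median log2 fold of all tested genes from -0.08 to -0.0065. Values that carry no read counts limit what small differences can show.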
